A study of Mus musculus with 6 samples.

Results

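The 34 genes described here carry glucose into the cell, break it down to pyruvate, turn pyruvate into lactate and pass lactate out, or decide whether pyruvate enters the mitochondrion. They were taken by symbol from a fixed list, compared step by step and isozyme by isozyme, and all 34 were found among the 55401 genes of the deposited files. RNA had been sequenced from 6 mouse primary cancer cell lines of the C57BL/6 strain, each grown in culture from dissociated tumour tissue. Mice labelled WT gave 3 of the lines (WT2, WT4 and WT6, here WT replicates 2, 4 and 6), and mice labelled Rag1KO gave the other 3 (KO1, KO3 and KO7, here Rag1KO replicates 1, 3 and 7). The product of Rag1 helps to cut and rejoin antigen receptor genes, and without it mice form no mature T or B cells, while their innate immune cells remain. Whether each line stems from a different animal is not stated, nor are age, sex and tumour type. Each p-value therefore weighs a difference against a spread between lines, which need not be one between animals and may in part be technical. The series' title names tumour metabolism shaped by immunoediting as its subject. Levels are normalized counts, that is reads of a gene after division by the library's size factor, in the order WT replicates 2, 4 and 6, then Rag1KO replicates 1, 3 and 7.

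Glucose enters cells through facilitative transporters of the SLC2A (GLUT) family and is trapped as glucose 6-phosphate by hexokinases. Phosphofructokinase commits it to glycolysis, under the control of fructose 2,6-bisphosphate, which the PFKFB enzymes make and remove. After the aldolase step, a series of abundant enzymes from triose-phosphate isomerase to pyruvate kinase yields pyruvate. Lactate dehydrogenase interconverts pyruvate and lactate, and monocarboxylate transporters move lactate across the membrane. Pyruvate dehydrogenase kinases (PDKs) switch off the complex that feeds pyruvate to the TCA cycle. Most steps have several isozymes from separate genes. Many tumour cells take up much glucose and release lactate even with oxygen present, and several of these genes are known targets of MYC and of the hypoxia-inducible factors.

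The libraries' reads in genes numbered from 55409583 to 62998051. WT replicate 6 stood apart: it was the highest of the 6 libraries for 27.4% of the 16137 genes tested and the lowest for 30.5%, against 11.1% to 16.3% in either direction for the other 5. Rag1 had 0 reads in the 3 libraries labelled WT and 39.3, 126 and 177 normalized counts in those labelled Rag1KO, so groups are named by their labels. Whether those reads lie in the deleted or in the remaining part of Rag1 is not visible here. Xist, expressed from an inactive X chromosome, stood at 59775 normalized counts in WT replicate 2, 32733 in WT replicate 4 and at most 15.3 in the other 4 lines. The Y-linked gene Ddx3y had at least 2156 normalized counts in those 4 lines and at most 2.01 in WT replicates 2 and 4. Xist without Ddx3y was thus seen only in lines labelled WT, so the contrast between the labels is partly mixed with this difference. Its part in the results was not tested. All 9 genes of a fibroblast marker list were detected, with summed normalized counts of 304004 to 1803236 in lines labelled WT and 1107186 to 2037497 in lines labelled Rag1KO, but WT replicate 6 had 206 normalized counts of Col1a1 against at least 478322 in the other lines. Of 11 leukocyte and macrophage markers 8 were detected and 6 had enough reads to be tested, Csf1r, Lyz2, Fcer1g and Coro1a among them. The 11 summed to 381 to 943 in lines labelled WT and 508 to 2116 in lines labelled Rag1KO. Ptprc had at most 3.83 normalized counts, and Tyrobp had 0 reads in all 6 libraries. Of 7 endothelial markers 5 were detected, Cldn5 being at 0, with sums of 33.4 to 1019 in lines labelled WT and 218 to 1490.0 in lines labelled Rag1KO. Of 7 epithelial markers 5 were detected, Epcam being at 0, with sums of 9.68 to 349 in lines labelled WT and 13.6 to 49.8 in lines labelled Rag1KO. Of 6 melanocyte markers 3 were detected, mostly Mitf and with Dct at 0, summing to 638 to 2253 in lines labelled WT and 463 to 1770.5 in lines labelled Rag1KO. In such bulk RNA, fewer cells of a type and less RNA per cell cannot be told apart.

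No member passed the test of a difference between the groups. Of the 34, 32 passed the filter on low counts, and the other two, Slc2a4 and Hk3, had at most 26.2 normalized counts in any line. The test (limma on log2(value + 1), Benjamini-Hochberg adjusted over all 16137 genes) called 0 of the 32 at 0.05, where it called 0.0062% of all genes. The members' adjusted p lay between 0.85 and 0.999. At an unadjusted p under 0.05 limma gave 2 members, Slc2a3 and Pfkfb4, both lower in lines labelled WT, beside 2.61% of all genes in that direction, 2.06% in the other and 4.67% in either. On the reads recovered from the values, edgeR's quasi-likelihood test called 0 members beside 0% of all genes, with 0 members at an unadjusted p under 0.05. DESeq2 called 0 of the 31 members for which it gave an adjusted p, beside 0.41% of all genes, with 2 at an unadjusted p under 0.05. It gave none for Slc16a3, whose difference was the largest it fitted among the members (log2 -4.91). Log2 differences (WT minus Rag1KO, of log2(normalized count + 1)) were positive for 16 members and negative for 16, with a median of -0.05 beside 0.0003 over all genes tested. A single member, Slc2a3, had groups that did not overlap with WT lower, beside 5.6% of all genes, and 0 members did with WT higher, beside 6.49%. The median SE of a member's log2 difference was 0.44, so with 3 lines a group only large differences could have been called. Without WT replicate 6, 21 of the 32 differences were smaller in size, 3 changed sign, and the median was 0.028 beside 0.02 over all genes.

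**Figure D1:**
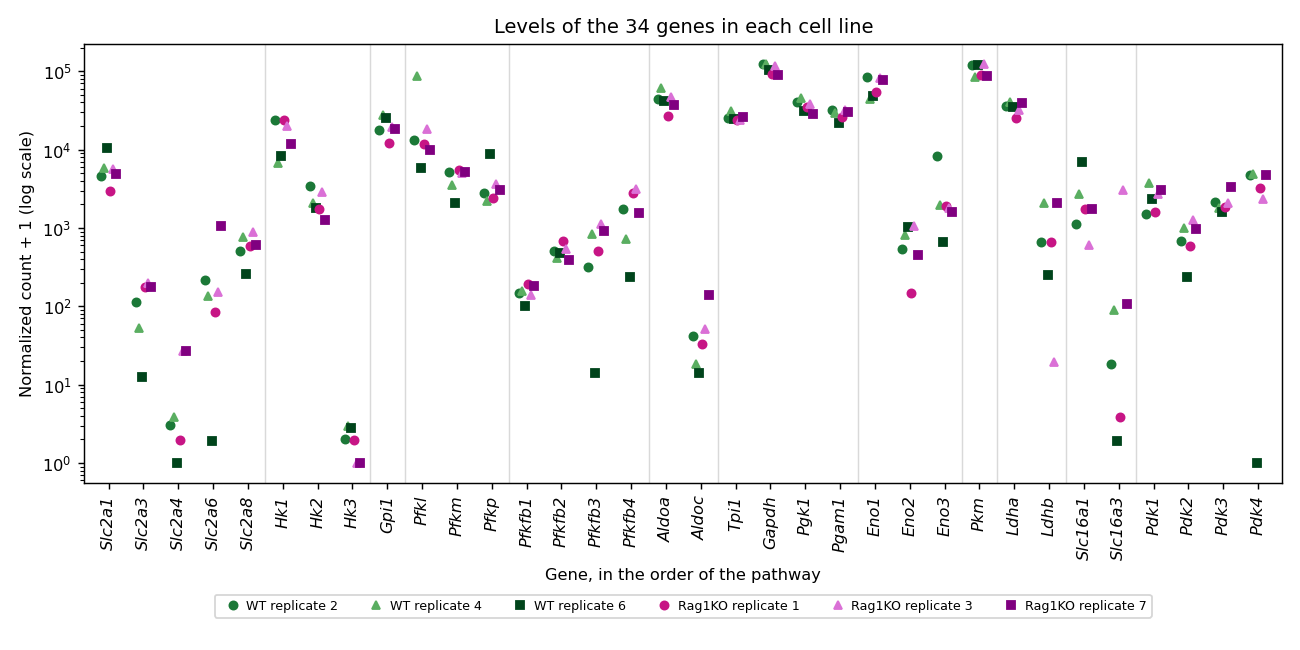
Normalized count + 1 on a log axis for the 34 genes, in pathway order, with 1 point per cell line (green shades for WT, purple and pink shades for Rag1KO). The enzymes from Tpi1 to Pgam1, Pkm and Ldha form tight clusters of points, while Slc2a6, Pfkfb3, Ldhb, Slc16a3 and Pdk4 each have 1 or more lines far from the rest.

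**Figure D2:**
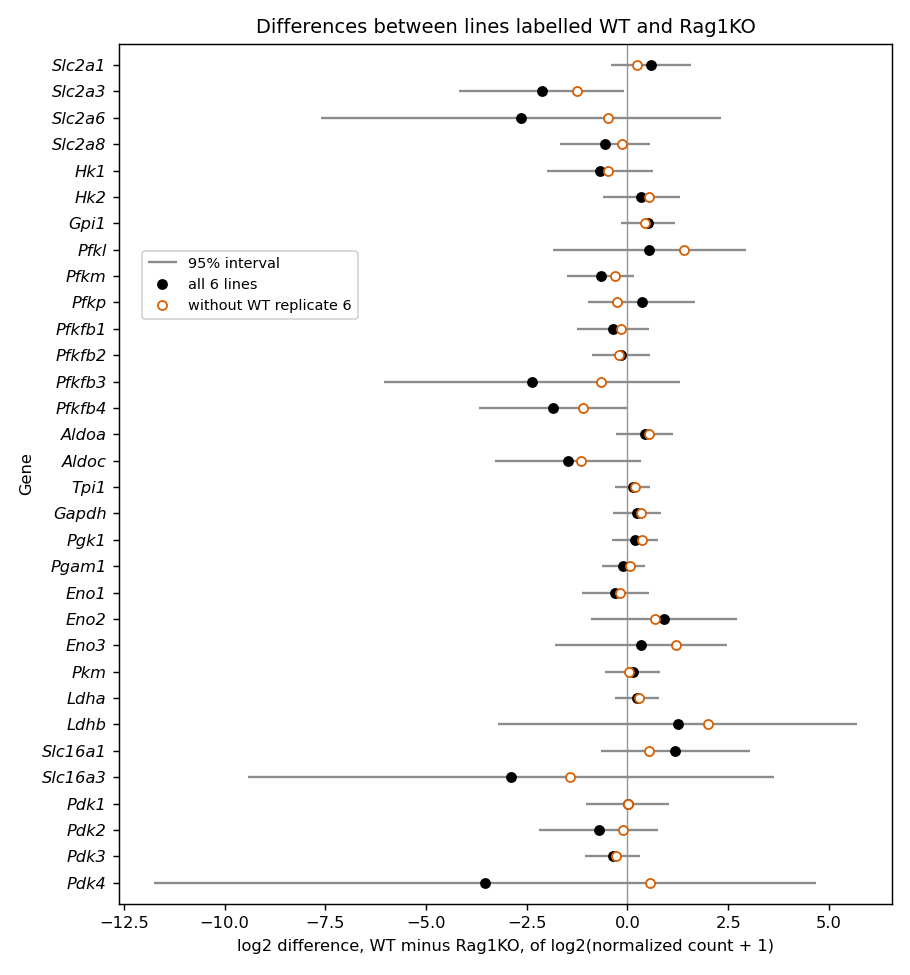
Log2 differences between lines labelled WT and Rag1KO for the 32 tested members, with 95% intervals (bars) and the value without WT replicate 6 (open circles). All intervals but those of Slc2a3 and Pfkfb4 span 0, and the widest, for Pdk4, runs from -11.74 to 4.69.

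The spread between lines was unequal along the pathway. The SD of log2 levels over the 6 libraries had a median of 0.61 for the members and 0.49 for all genes tested. It was 0.14 for Tpi1 and 0.21 for Gapdh, but 3.04 for Slc2a6, 3.87 for Slc16a3 and 4.88 for Pdk4. WT replicate 6 was the lowest library for 15 of the 32 tested members (46.9%, beside 30.5% of all genes tested) and the highest for 3 (9.38%, beside 27.4%). WT replicate 4 was the highest library for 10 members (31.25%, beside 13.9%), among them Gpi1, Aldoa, Tpi1, Gapdh, Pgk1 and Ldha. Rag1KO replicate 1 was the lowest for 6 (18.75%, near the 14.8% of all genes tested), which included Slc2a1, Gpi1, Aldoa, Tpi1 and Ldha. Together the 34 genes took 0.797% of all reads in Rag1KO replicate 1, 1.08% in WT replicate 4 and between 0.891% and 0.950% in the other 4 libraries.

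The promoters of 4 members are shown because these genes cover the entry of glucose, the control of phosphofructokinase, the exit of lactate and the gate to the mitochondrion, and each differed at least 3-fold between lines. Each sequence runs from 250 bases before to 50 after the start listed in RefSeq (GRCm38.p6), 5′ to 3′ on the gene's strand. Capitals mark ACGTG or GCGTG on either strand, the core letters bound by hypoxia-inducible factors. The windows are chr4:119108495-119108794, plus strand for Slc2a1, chr9:108991652-108991951, plus strand for Pfkfb4, chr11:120948817-120949116, plus strand for Slc16a3 and chr6:5496229-5496528, minus strand for Pdk4.
Slc2a1: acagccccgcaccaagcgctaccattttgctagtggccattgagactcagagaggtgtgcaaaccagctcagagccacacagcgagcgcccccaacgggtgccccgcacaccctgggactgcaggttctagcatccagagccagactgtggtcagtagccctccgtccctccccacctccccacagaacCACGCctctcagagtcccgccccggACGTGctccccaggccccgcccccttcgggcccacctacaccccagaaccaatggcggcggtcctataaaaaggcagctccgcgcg
Pfkfb4: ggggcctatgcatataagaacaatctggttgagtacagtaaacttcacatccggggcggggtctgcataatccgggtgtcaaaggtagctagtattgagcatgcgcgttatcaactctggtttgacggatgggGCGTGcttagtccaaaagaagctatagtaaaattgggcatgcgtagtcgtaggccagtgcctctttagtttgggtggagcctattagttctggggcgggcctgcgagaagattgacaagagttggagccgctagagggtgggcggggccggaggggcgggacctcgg
Slc16a3: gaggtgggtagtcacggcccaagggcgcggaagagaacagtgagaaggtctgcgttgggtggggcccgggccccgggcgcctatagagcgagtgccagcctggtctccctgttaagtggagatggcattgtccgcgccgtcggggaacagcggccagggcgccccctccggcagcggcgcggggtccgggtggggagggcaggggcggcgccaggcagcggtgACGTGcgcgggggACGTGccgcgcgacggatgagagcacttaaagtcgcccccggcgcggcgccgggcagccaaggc
Pdk4: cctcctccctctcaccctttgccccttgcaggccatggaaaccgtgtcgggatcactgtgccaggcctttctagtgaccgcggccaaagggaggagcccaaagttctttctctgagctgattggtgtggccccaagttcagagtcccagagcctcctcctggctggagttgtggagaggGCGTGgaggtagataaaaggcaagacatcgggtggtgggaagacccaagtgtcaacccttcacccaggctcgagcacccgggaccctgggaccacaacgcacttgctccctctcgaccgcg

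The Slc2a1 window holds 1 ACGTG and 1 GCGTG, that of Slc16a3 holds 2 ACGTG, and those of Pfkfb4 and Pdk4 hold 1 GCGTG each. RefSeq listed 51 starts for 32 of the 34 members. ACGTG, on either strand, was in 43.1% of these windows and in 19.6% of all 32851 windows of 300 bases. GCGTG was in 54.9% and 32.4%. The E-box CACGTG, bound by MYC with MAX, contains ACGTG and was in 11.8% and 7.15%, its 6 member genes being Pfkm, Pfkfb2, Pfkfb3, Ldha, Slc16a1 and Pdk2. Windows were not matched for base composition, and those of several starts of the same gene can share bases, so these percentages are no test of enrichment. A match of letters is a description and shows no binding.

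Slc2a1, encoding the basal transporter GLUT1, was the main glucose transporter in every line, and the neuronal-type transporter GLUT3 was a minor one whose level was lower in every line labelled WT than in any labelled Rag1KO. Slc2a1 (ENSMUSG00000028645.11, chromosome 4, 119108711 to 119137983, mm10) had 4538, 5769 and 10568 normalized counts in lines labelled WT and 2930.5, 5739 and 4897 in lines labelled Rag1KO. WT replicate 6 lay 1.83-fold above the next line, and the remaining 5 lines overlapped across groups, with a log2 difference of 0.58 (SE 0.40) that became 0.23 without WT replicate 6. Slc2a3 (ENSMUSG00000003153.10, chromosome 6, 122727809 to 122801640), encoding GLUT3, had 111, 51.2 and 11.4 normalized counts in lines labelled WT and 175, 195 and 176 in lines labelled Rag1KO. The 3 lines labelled Rag1KO were nearly alike, and every line labelled WT lay below them. The log2 difference was -2.13 (SE 0.83, 95% interval -4.17 to -0.091, limma adjusted p = 0.85), and -1.26 without WT replicate 6, which held 13 reads.

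Slc2a6, encoding the lysosomal transporter GLUT6, had 215, 136 and 0.880 normalized counts in lines labelled WT and 82.4, 152 and 1061 in lines labelled Rag1KO. Rag1KO replicate 7 lay 4.95-fold above the next line, and WT replicate 6 held 1 read. Slc2a8, encoding the intracellular transporter GLUT8, ranged from 256 to 881 normalized counts and was lowest in WT replicate 6. Slc2a4, encoding the insulin-regulated GLUT4 of muscle and fat, had 25.5 and 26.2 normalized counts in Rag1KO replicates 3 and 7 and at most 2.90 in the other 4 lines, near the 3 reads that a count of 0 allows. Of 8 skeletal muscle markers 5 were detected, summing to 4316 normalized counts in Rag1KO replicate 3, mostly from Acta1, and to 18.5 to 454 in the other lines, while Ckm and Myod1 had 0 reads. Of 6 adipocyte markers 5 were detected, summing to 8.80 in WT replicate 6 and to 784 to 3654 in the others, where Pparg and Fabp4 made up most, with Adipoq above 2 reads in WT replicate 4 alone (141 normalized counts). Their part in the Slc2a4 levels was not tested. Per kilobase of principal transcript, Slc2a1 made up 64.2% to 96.3% of the 5 transporters. Its share was higher in every line labelled WT than in any labelled Rag1KO (85.2% ± 9.66 against 70.5% ± 6.07, SD, n = 3), and was not tested. The 5 leave out Slc2a10, which had 1066, 408 and 38.7 normalized counts in lines labelled WT and 1549.6, 1626 and 1867 in lines labelled Rag1KO.

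Slc2a5, Slc2a9 and Slc2a10, other transporter genes, are named for having some of the lowest p in a list of related genes. A marked difference was thus part of their choice. Each had lower levels in every line labelled WT than in any labelled Rag1KO, and none passed the test. Slc2a5, encoding the fructose transporter GLUT5, had 24.2, 13.5 and 0 normalized counts in lines labelled WT and 317, 256 and 73.6 in lines labelled Rag1KO. Slc2a9, encoding a urate transporter, had 119, 187 and 79.2 normalized counts in lines labelled WT and 559.6, 357 and 232 in lines labelled Rag1KO. Slc2a10, encoding GLUT10, had 1066, 408 and 38.7 normalized counts in lines labelled WT and 1549.6, 1626 and 1867 in lines labelled Rag1KO. In each of these genes the groups did not overlap, and WT replicate 6 was the lowest line. Without it the log2 differences of Slc2a5, Slc2a9 and Slc2a10 were -3.26, -1.26 and -1.34, against -4.68, -1.56 and -2.69 with all 6 lines. Counted after their values were seen, 5 of the 8 Slc2a genes tested had separated groups with WT lower (Slc2a3, Slc2a5, Slc2a9, Slc2a10 and the myo-inositol transporter gene Slc2a13), beside 5.6% of all genes, and 0 were called. Slc2a13 had 232, 8.69 and 237 normalized counts in lines labelled WT and 348, 379 and 278 in lines labelled Rag1KO, and its low line was WT replicate 4.

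Hexokinase transcripts came mostly from Hk1, with Hk2 second and Hk3 all but absent. Hk1 (ENSMUSG00000037012.18, chromosome 10, 62268855 to 62379908), the widely expressed isozyme, had 23799, 6805 and 8363 normalized counts in lines labelled WT and 24032, 19743 and 11858 in lines labelled Rag1KO. Hk2 (ENSMUSG00000000628.10, chromosome 6, 82725025 to 82774454), the inducible isozyme often raised in tumours, had 3445, 2079 and 1818 normalized counts in lines labelled WT and 1751, 2880.5 and 1278 in lines labelled Rag1KO. WT replicate 2 was the highest line for Hk2 and close to the highest for Hk1, and both genes overlapped between groups. The log2 ratio of Hk2 to Hk1 was -2.23 ± 0.54 in lines labelled WT and -3.26 ± 0.50 in lines labelled Rag1KO (SD, n = 3), the groups meeting at Rag1KO replicate 3 (-2.78) and WT replicate 2 (-2.79). Hk2 made up 4.84% to 17.6% of the family per kilobase of principal transcript, or 9.43% to 30.4% with all annotated exons merged. Hk3, the isozyme of blood cells, had at most 2 reads in any library. Hkdc1, a hexokinase-like gene of the same family, ranged from 4.40 to 117 normalized counts, with WT replicate 2 the highest.

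Gpi1, encoding glucose-6-phosphate isomerase, had 18012, 27471 and 25306 normalized counts in lines labelled WT and 12066, 19711 and 18314 in lines labelled Rag1KO. Its log2 difference of 0.51 (SE 0.28, 95% interval -0.17 to 1.19) was the largest positive one among the single-isozyme steps, and the groups overlapped between 18012 and 19711 normalized counts.

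At phosphofructokinase 2 lines departed from the rest, WT replicate 4 by its Pfkl and WT replicate 6 by its Pfkp. Pfkl (ENSMUSG00000020277.10, chromosome 10, 77986947 to 78010083), the liver-type subunit, had 13434, 87135 and 5765 normalized counts in lines labelled WT and 11921, 18326 and 9931 in lines labelled Rag1KO. WT replicate 4 lay 4.75-fold above the next line, and there Pfkl took 0.152% of all reads, more than Pkm at 0.149%. The log2 difference of 0.55 (SE 0.98) rested on that line and was -0.56 without it. Pfkp (ENSMUSG00000021196.14, chromosome 13, 6579768 to 6648777), the platelet-type subunit, had 2795, 2216 and 8832 normalized counts in lines labelled WT and 2379, 3629 and 3030.3 in lines labelled Rag1KO. WT replicate 6 was 2.43-fold above the next line, and without it the log2 difference went from 0.35 to -0.25. Pfkm, the muscle-type subunit, had 5111, 3492 and 2071 normalized counts in lines labelled WT and 5468, 5097 and 5241 in lines labelled Rag1KO. The 3 lines labelled Rag1KO lay within 5097 to 5468, WT replicate 2 just inside that range and WT replicates 4 and 6 below it, giving a log2 difference of -0.66 (SE 0.34, limma adjusted p = 0.85) that was -0.32 without WT replicate 6.

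The mixture of subunits differed accordingly. Per kilobase of principal transcript, Pfkl made up 93.0% of the 3 subunits in WT replicate 4, 35.2% in WT replicate 6 and 51.1% to 65.0% in the other 4 lines. Pfkp made up 48.5% in WT replicate 6 (30.8% with all exons merged) and between 2.13% and 14.0% in the other lines. The log2 ratio of Pfkp to Pfkl was -5.30 in WT replicate 4, 0.62 in WT replicate 6 and between -2.34 and -1.71 in the other 4.

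The high Pfkl of WT replicate 4 was shared by its neighbours on chromosome 10. Of 29 tested genes within 1000 kb of Pfkl on either side, Pfkl included, 16 were more than 2-fold above the next line in WT replicate 4, beside 0.992% of all genes tested. All 16 lay between 77978524 and 78718294 (mm10) and were 2.07-fold to 8.47-fold above the next line. Named after their values were seen, Pdxk (pyridoxal kinase) was 8.47-fold, Agpat3 (an acyltransferase) 5.44-fold, Cstb (cystatin B) 4.43-fold and Rrp1 (a ribosome biogenesis factor) 4.08-fold above the next line. The predicted genes Gm10146 and Gm7842, inside the stretch, were 0.770-fold and 0.853-fold the highest of the other lines. Sumo3 and Ube2g2, over 360 kb to the left of Pfkl, were 1.42-fold and 0.579-fold the highest of the other lines. Only RNA was measured, and the number of DNA copies of this stretch was not tested.

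**Figure D3:**
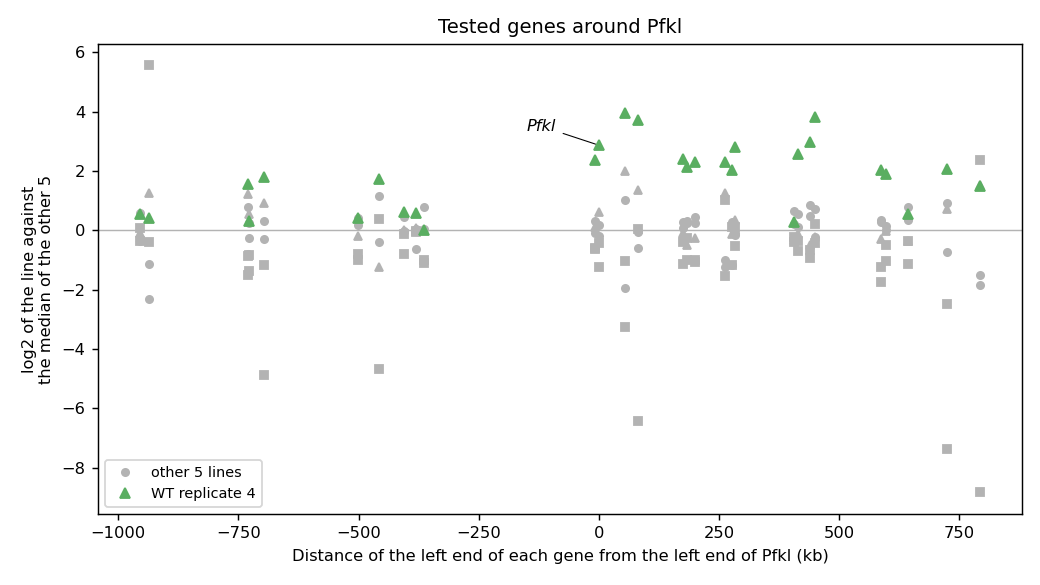
Tested genes within 1000 kb of Pfkl on chromosome 10, by distance of their left ends from that of Pfkl, with the log2 of each line against the median of the other 5. WT replicate 4 (green triangles) lies far above the other lines (grey) for the 16 genes of the run, which starts next to Pfkl, and close to them for most genes to its left.

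The PFKFB enzymes had lower means in lines labelled WT for all 4 genes, and none passed the test. Pfkfb4 (ENSMUSG00000025648.18, chromosome 9, 108991778 to 109032228), which is induced by hypoxia in many cells, had 1742, 727 and 234 normalized counts in lines labelled WT and 2788, 3179 and 1570.4 in lines labelled Rag1KO. WT replicate 2 lay just above Rag1KO replicate 7, and WT replicates 4 and 6 lay below every line labelled Rag1KO. The log2 difference was -1.85 (SE 0.75, 95% interval -3.68 to -0.013, limma adjusted p = 0.85), and -1.09 without WT replicate 6. Pfkfb3 (ENSMUSG00000026773.19, chromosome 2, 11471433 to 11554077), the isozyme with the strongest bias to making fructose 2,6-bisphosphate, had 315, 841 and 13.2 normalized counts in lines labelled WT and 511, 1117 and 919 in lines labelled Rag1KO. WT replicate 6 lay 23.9-fold below the next lowest line, and without it the log2 difference went from -2.37 to -0.65. Pfkfb2, the heart-type isozyme, had a narrow range of 391 to 671 normalized counts, and the X-linked Pfkfb1, the liver and muscle isozyme, ranged from 98.6 to 193.

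Per kilobase of principal transcript, Pfkfb4 was the leading isozyme in 5 lines, at 36.4% in WT replicate 4 and 53.5% to 68.2% in the other 4 of them. In WT replicate 6 its share was 28.5%, below Pfkfb2 at 46.3%, while Pfkfb3 was at 1.21%. Tigar, a p53 target whose product also removes fructose 2,6-bisphosphate, ranged from 432 to 932 normalized counts and overlapped between groups.

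**Figure D4:**
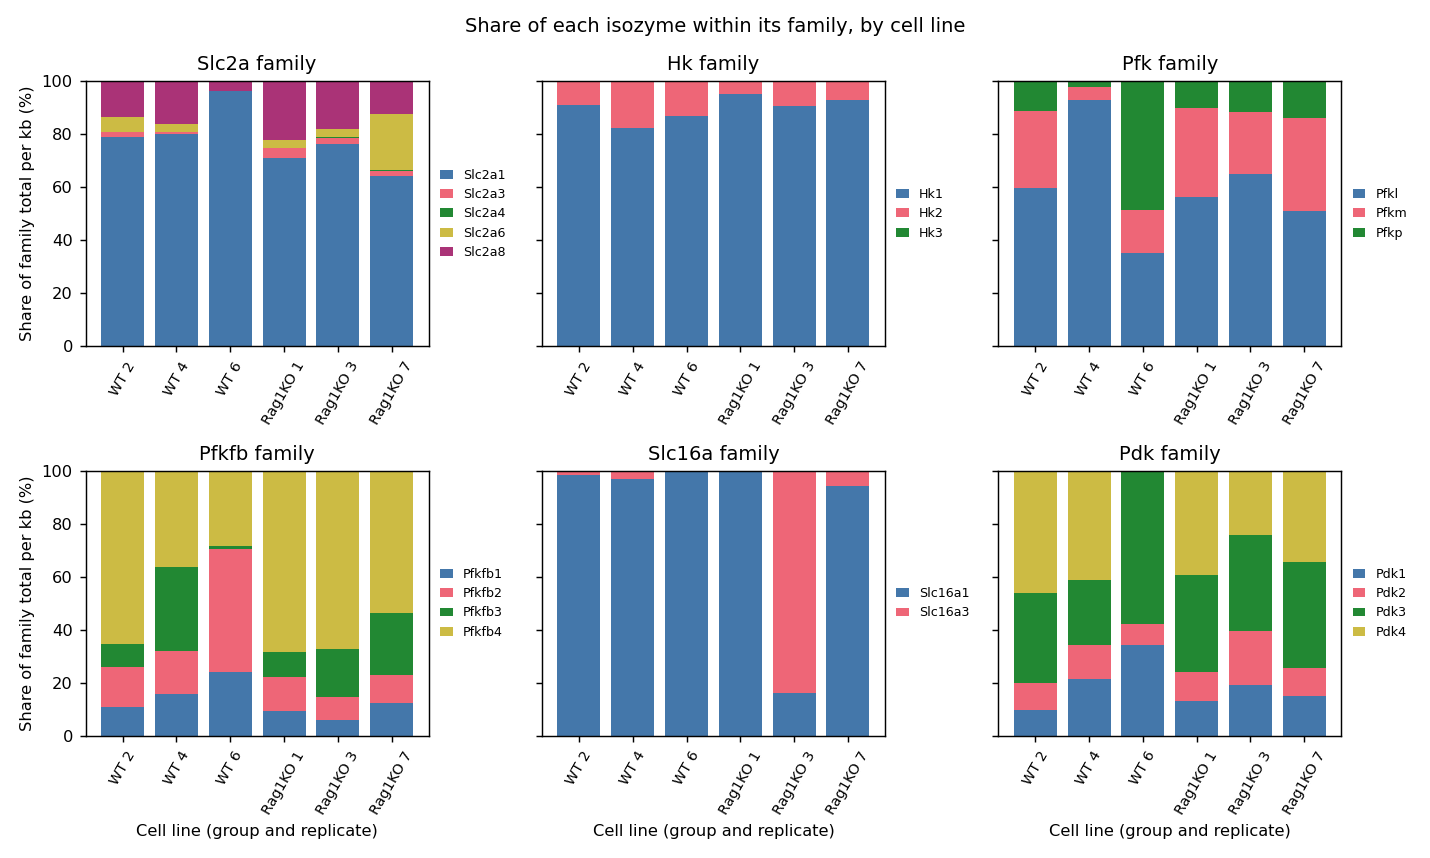
Share of each isozyme in its family per kilobase of principal transcript, 1 bar per cell line (3 WT, then 3 Rag1KO). Pfkl fills 93.0% of the Pfk bar in WT replicate 4, Slc16a3 fills 84.0% of the Slc16a bar in Rag1KO replicate 3, and Pdk4 is missing from WT replicate 6.

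Each step from aldolase to pyruvate kinase was carried mainly by 1 abundant isozyme, with the highest line 1.31-fold (Tpi1) to 2.28-fold (Aldoa) the lowest. Aldoa, the main aldolase gene, had 44142, 61823 and 41610.0 normalized counts in lines labelled WT and 27078, 46910.0 and 36775 in lines labelled Rag1KO. Tpi1 (triose-phosphate isomerase) had 25586, 30996 and 24712 normalized counts in lines labelled WT and 23718, 23872 and 26341 in lines labelled Rag1KO, and its 95% interval of -0.30 to 0.56 on the log2 scale was the narrowest of the members. Gapdh (glyceraldehyde-3-phosphate dehydrogenase) had 122428, 124110.1 and 102621 normalized counts in lines labelled WT and 90985, 115161 and 89466 in lines labelled Rag1KO. In all 3 genes WT replicate 4 was the highest line, and in Aldoa and Tpi1 Rag1KO replicate 1 was the lowest. Pgk1, the X-linked gene of phosphoglycerate kinase, had 40369, 45717 and 30862 normalized counts in lines labelled WT and 35083, 38230.4 and 28484 in lines labelled Rag1KO. It was highest in WT replicates 4 and 2, the pair that expressed Xist, and its log2 difference went from 0.19 to 0.35 without WT replicate 6. Gapdh, on chromosome 6, had the same 2 highest lines. Of the other X-linked members, Pfkfb1 was highest in Rag1KO replicate 1 and Pdk3 in Rag1KO replicate 7. What part the X chromosomes have in the Pgk1 levels was not tested. Pgam1 (phosphoglycerate mutase) ranged from 21963 to 32265 normalized counts and Pkm (pyruvate kinase, muscle type) from 85722 to 122209.9. For the 9 abundant genes Gpi1, Aldoa, Tpi1, Gapdh, Pgk1, Pgam1, Eno1, Pkm and Ldha, log2 differences lay between -0.30 and 0.51, 7 of them positive, and the highest line was 1.31-fold to 2.28-fold the lowest. Several of these genes have near-identical processed pseudogenes, and how shared reads were counted is not given in the sources used here, so their levels carry that uncertainty. The splice choice of Pkm cannot be read from counts per gene.

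The minor isozymes of aldolase and enolase varied more. Aldoc, the brain-type aldolase, had 40.3, 17.4 and 13.2 normalized counts in lines labelled WT and 31.6, 51.0 and 137 in lines labelled Rag1KO, and Rag1KO replicate 7 lay 2.68-fold above the next line. Relative to Aldoa, every line labelled WT lay below every line labelled Rag1KO, the log2 ratio of Aldoc to Aldoa being -11.10 ± 0.90 in lines labelled WT and -9.19 ± 0.98 in lines labelled Rag1KO (SD, n = 3). Aldoc made up at most 0.201% of aldolase transcripts per kilobase. Eno1 (enolase 1, the widespread form) had 85502, 43652 and 48763 normalized counts in lines labelled WT and 54356, 81204 and 77263 in lines labelled Rag1KO. Eno2, the neuronal enolase, ranged from 148 to 1054 normalized counts, Rag1KO replicate 1 being 3.01-fold below the next lowest line. Its log2 difference of 0.90 (SE 0.74) was 0.16 without that line. Eno3 (ENSMUSG00000060600.15, chromosome 11, 70657202 to 70662513), the muscle enolase, had 8249, 1985 and 669.6 normalized counts in lines labelled WT and 1888, 1784 and 1602 in lines labelled Rag1KO. WT replicate 2 lay 4.16-fold above the next line, and its Eno3 share of enolase per kilobase of principal transcript was 11.1% against 1.72% to 5.50% in the others. With all exons merged these shares were 22.9% against 3.98% to 12.1%. Without that line the log2 difference of Eno3 was -0.60 in place of 0.34. The muscle marker Acta1, at 399.8 normalized counts in WT replicate 2, was highest in Rag1KO replicate 3 at 4230.3, and the part of muscle-type expression in the Eno3 levels was not tested. Of 7 neuronal and neuroendocrine markers 5 were detected, with summed normalized counts of 499.5, 2346 and 10720.4 in lines labelled WT and 577, 4111 and 3470.1 in lines labelled Rag1KO. The sum was highest in WT replicate 6 (mostly Nefl) and Rag1KO replicate 3 (mostly Tubb3), the pair of lines highest for Eno2. It was lowest in WT replicate 2, where Eno2 was at 535, above the 445 of Rag1KO replicate 7, whose sum was 3470.1. Rag1KO replicate 1, the lowest line for Eno2, had the next lowest sum, and Rbfox3 had 0 reads throughout. The part of neuronal-type expression in the Eno2 levels was not tested.

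Lactate dehydrogenase was almost wholly the A form, and the B form and the lactate exporter MCT4 set 1 line apart. Ldha (ENSMUSG00000063229.15, chromosome 7, 46841475 to 46855627), whose subunit favours lactate formation, had 36179, 40963 and 34622 normalized counts in lines labelled WT and 25086, 31892 and 38876 in lines labelled Rag1KO. The groups overlapped, Rag1KO replicate 7 lying among the lines labelled WT. Ldhb (ENSMUSG00000030246.12, chromosome 6, 142490249 to 142507957), the heart-type subunit, had 667, 2094 and 253 normalized counts in lines labelled WT and 656, 18.5 and 2052 in lines labelled Rag1KO. Rag1KO replicate 3 lay 13.6-fold below the next lowest line, and the log2 difference turned from 1.25 (SE 1.82) to -0.71 without it. Ldhb made up 0.0787% of the 2 genes per kilobase in that line and 0.978% to 6.67% in the others.

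Slc16a1 (ENSMUSG00000032902.1, chromosome 3, 104638668 to 104658462), encoding the monocarboxylate transporter MCT1, had 1136, 2735 and 6886 normalized counts in lines labelled WT and 1732, 601 and 1732 in lines labelled Rag1KO. WT replicate 6 lay 2.52-fold above the next line and Rag1KO replicate 3 was the lowest, and without WT replicate 6 the log2 difference went from 1.19 (SE 0.76) to 0.53. Slc16a3 (ENSMUSG00000025161.16, chromosome 11, 120948480 to 120960868), encoding the low-affinity lactate exporter MCT4 of highly glycolytic cells, had 17.1, 88.8 and 0.880 normalized counts in lines labelled WT and 2.87, 3088 and 105 in lines labelled Rag1KO. Rag1KO replicate 3 lay 29.5-fold above the next line, and WT replicate 6 and Rag1KO replicate 1 held 1 and 3 reads. Per kilobase, Slc16a3 made up 84.0% of the 2 transporters in Rag1KO replicate 3 and at most 5.81% in the other 5 lines. The same line thus combined the lowest Slc16a1, the lowest Ldhb and the highest Slc16a3, with Ldha at 31892 normalized counts, inside the range of the others.

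The transporters' ancillary proteins were also measured. Bsg, encoding basigin, the chaperone of both transporters, ranged from 23708 to 52029 normalized counts. Emb, encoding embigin, its relative, had 667, 1037 and 25.5 normalized counts in lines labelled WT and 207, 8457 and 2976 in lines labelled Rag1KO. Rag1KO replicate 3 was the highest line for Emb, 2.84-fold above the next. Ldhd, the mitochondrial D-lactate dehydrogenase gene, had 23.2, 5.79 and 3.52 normalized counts in lines labelled WT and 110.2, 44.0 and 102 in lines labelled Rag1KO. Its groups did not overlap, with a log2 difference of -3.15 (SE 0.80, limma adjusted p = 0.85). Of the 31 other glycolysis and transport genes listed beside the members, 16 were tested, 8 with positive and 8 with negative differences, a median of -0.11 and 0 calls. Among these 16 the groups did not overlap for 5 with WT lower (Ldhd and the Slc2a genes 5, 9, 10 and 13), beside 5.6% of all genes, and for 0 with WT higher, beside 6.49%.

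Among the PDK genes, Pdk4 was missing from 1 line and abundant in the other 5, while the other 3 were present throughout. Pdk4 (ENSMUSG00000019577.6, chromosome 6, 5483351 to 5496309), which is raised by fasting and fatty acid use in many tissues, had 4756, 4906 and 0 normalized counts in lines labelled WT and 3245, 2309 and 4776 in lines labelled Rag1KO. The 0 reads of WT replicate 6 allow up to 2.64 normalized counts (3 reads, counting error only), against at least 2309 elsewhere. The log2 difference of -3.53 (SE 3.35) rested on this line, was 0.55 without it, and was -0.11 with edgeR. Pdk1, a hypoxia-responsive isozyme, had 1513, 3801 and 2357 normalized counts in lines labelled WT and 1606, 2732 and 3072 in lines labelled Rag1KO. Its group means were all but equal, at a log2 difference of 0.0027 with a 95% interval of -1.02 to 1.03. Pdk2, the widespread isozyme, had 686, 996 and 234 normalized counts in lines labelled WT and 590.3, 1258 and 960.0 in lines labelled Rag1KO, again with WT replicate 6 the lowest, 2.52-fold below the next. The X-linked Pdk3 had 2126, 1774 and 1610.3 normalized counts in lines labelled WT and 1844, 2108 and 3366 in lines labelled Rag1KO, and its highest line, Rag1KO replicate 7, had 1.94 normalized counts of Xist.

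Per kilobase of principal transcript, Pdk4 made up 24.1% to 46.0% of PDK transcripts in 5 lines and 0% in WT replicate 6, where Pdk3 made up 57.7% and Pdk1 34.4%. The 12 genes that bring pyruvate into the mitochondrion and oxidise or carboxylate it all overlapped between groups. Over all genes tested, groups did not overlap for 5.6% with WT lower and for 6.49% with WT higher. Of the 12, 6 differences were positive and 6 negative, with a median of -0.019 and 0 calls. Pcx (pyruvate carboxylase) had the lowest p, with 1362, 1302 and 1022 normalized counts in lines labelled WT and 2593, 1169 and 3990.4 in lines labelled Rag1KO. Pdhb, a subunit of pyruvate dehydrogenase, ranged from 2442 to 5638 normalized counts, Dlat, its acetyltransferase, from 2782 to 4375, and Dld, its dihydrolipoamide dehydrogenase, from 2758 to 7313.

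No listed regulator of the pathway passed the test either. Of 16 listed, 15 were tested, with 7 positive and 8 negative differences, a median of -0.059 and 0 calls. Hif1a, the oxygen-regulated transcription factor, had 12751, 18906 and 10575 normalized counts in lines labelled WT and 8562, 16846 and 7849 in lines labelled Rag1KO. Myc had 4993, 3263 and 7282 normalized counts in lines labelled WT and 3929, 3402 and 3322 in lines labelled Rag1KO, with WT replicate 6 the highest line. Mtor, the growth kinase, ranged from 2009 to 3030.3 normalized counts and Arnt, the partner of HIF1A, from 3034 to 6725. The 20 hypoxia-responsive genes outside glycolysis had 9 positive and 11 negative differences, a median of -0.04 and 0 calls. Their groups did not overlap for 1 gene with WT higher, beside 6.49% of all genes, and for 0 with WT lower, beside 5.6%. The prolyl hydroxylase gene Egln3 had 271, 711 and 4520.3 normalized counts in lines labelled WT and 108, 302 and 101 in lines labelled Rag1KO, and the endoplasmic reticulum oxidase gene Ero1l 5618, 11913 and 47163 normalized counts in lines labelled WT and 4163, 8378 and 4593 in lines labelled Rag1KO. The prolyl 4-hydroxylase gene P4ha2 had 5119.9, 7379.8 and 1316 normalized counts in lines labelled WT and 6987, 19127 and 11743 in lines labelled Rag1KO, and Stc2, encoding stanniocalcin, 2480.4, 219 and 2625 normalized counts in lines labelled WT and 439.9, 188 and 249 in lines labelled Rag1KO. WT replicate 6 was thus the highest line for Egln3, Ero1l and Stc2 and the lowest for P4ha2, while Pfkfb3, Pfkfb4 and Pdk4 were lowest there.

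Ratios within a family do not depend on the scaling of a library, except through the 1 added to each normalized count. That addition weighs on genes with few reads. Of the 17 isozyme pairs compared, the groups overlapped in 14. They did not overlap, with WT lower, for Slc2a3 to Slc2a1 and for Aldoc to Aldoa. The log2 ratio of Slc2a3 to Slc2a1 was -7.29 ± 2.24 in lines labelled WT and -4.57 ± 0.45 in lines labelled Rag1KO (SD, n = 3). They did not overlap, with WT higher, for Hk3 to Hk1, where Hk3 is at or under the limit of a count of 0. With 0.1 added in place of 1, the difference of that ratio between groups went from 1.70 to 3.56. The ratios were not tested, and the smallest p of an exact permutation test of 3 lines against 3 is 0.1. The pair with the widest span over lines was Slc16a3 to Slc16a1, from -11.84 in WT replicate 6 to 2.36 in Rag1KO replicate 3 on the log2 scale. The low end rests on 1 read of Slc16a3 in WT replicate 6 and on the 1 added. The Slc2a3 to Slc2a1 ratio ran from -9.73 in WT replicate 6 to -4.05 in Rag1KO replicate 1. Without WT replicate 6 its difference between groups went from -2.72 to -1.49.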

How the data were processed

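In the deposited files each gene has a signal value, a normalized count. The submitters' processing notes name the tools STAR 2.7.9a, Trim Galore 0.6.6, FastQC and DESeq2, and the build mm10. The roles of these tools, the read counter and the annotation are not given in the sources used here. Every value was a whole number of reads (within 0.01) divided by 1 median-of-ratios size factor per library, so reads were recovered. Gene IDs were matched to GENCODE M21 (55141 of 55401, 54349 in the same version), which gave coordinates and lengths. Aldoa has 2 gene IDs, and the one with more reads was used.

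Genes were kept by edgeR's filterByExpr, and limma 3.58.1 with a mean-variance trend was fitted to log2(value + 1), WT minus Rag1KO, two-sided, threshold 0.05. Alternatives were edgeR 4.0.16 and DESeq2 1.42.0 on the recovered reads, TMM scaling, a pseudocount of 0.1, no filter and leaving out each library. Lengths are those of the APPRIS principal transcript, with merged exons as an alternative chosen after seeing the data. In simulated data, limma and edgeR gave back the median size of large changes planted in well-expressed genes. The simulated spread was set smaller than the one estimated from these lines. That check therefore does not show which differences could have been called here. Members, lists and isozyme pairs were chosen with earlier results of these data known. All members are named. Of other lists, up to 4 genes of the lowest p are named, and further genes were chosen after their values were seen. Calculations used R 4.3.3 and Python 3.11.15 with matplotlib 3.10.9.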

Additional observations from a re-analysis of the deposited data

How the results depend on the processing

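Each alternative called 0 members, DESeq2 having given Slc16a3 no adjusted p, and none moved the members' median log2 difference by more than the spread between lines (0.03 without WT replicate 6, -0.22 at the other end of the fits that left out 1 library). Counts of members with separated groups moved: with WT higher from 0 to 1 without a filter (Hk3, beside 4.31% of all genes) and to between 0 and 4 of 32 with 1 library left out (beside 10.8% to 12.2%), and with WT lower from 1 to 2 under TMM scaling (beside 5.81%) and to between 1 and 7 of 32 with 1 library left out (beside 9.4% to 12.5%). The 7 came without WT replicate 2 (beside 11.7%) and the 4 without Rag1KO replicate 3 (beside 10.9%). Fewer lines separate more easily by construction. Log2 differences that changed sign with a library left out ranged over those fits from -0.56 to 1.40 for Pfkl, -0.25 to 0.74 for Pfkp, -0.37 to 0.018 for Pfkfb2, -0.22 to 0.057 for Pgam1, -0.60 to 1.21 for Eno3, -0.71 to 2.64 for Ldhb, -0.33 to 0.33 for Pdk1 and -5.58 to 0.55 for Pdk4. Under TMM scaling Pdk1 was at -0.0082, and 0 other members changed sign under edgeR, DESeq2, TMM scaling, the pseudocount of 0.1 or no filter. Sizes moved more: with edgeR, and with DESeq2 to within 0.01, 7 members moved by more than a factor of 1.5, the cause not being tested. The log2 difference went with edgeR from -3.53 to -0.11 for Pdk4, from 1.25 to 0.13 for Ldhb, from -2.37 to -1.13 for Pfkfb3, from -2.64 to -1.89 for Slc2a6, from -2.90 to -4.91 for Slc16a3, from 0.55 to 1.39 for Pfkl and from 0.34 to 1.03 for Eno3. With a pseudocount of 0.1 that of Pdk4 was -4.63. No paired analysis was possible because the groups share no replicate numbers. Values of 3 reads or fewer, which depth limits, occur in Hk3 in every library, in Slc2a4 in all libraries but Rag1KO replicates 3 and 7, in Slc2a6 and Pdk4 in WT replicate 6, and in Slc16a3 in WT replicate 6 and Rag1KO replicate 1.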

Other observations

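For members that departed in 1 line, the tested genes within 500 kb were read in the same line. Slc16a3 in Rag1KO replicate 3 was 7.41 above the median of the other 5 lines on the log2 scale, while its 38 tested neighbours had a median of -0.045. Ldhb in the same line was -5.09 against a median of -0.13 for 5 neighbours, Pfkfb3 in WT replicate 6 -5.89 against -0.54 for 6, and Eno3 in WT replicate 2 2.21 against 0.10 for 29. Pfkl in WT replicate 4 was at 2.87 with a median of 2.29 for 17 neighbours. Pdk4 in WT replicate 6 had 3 tested neighbours, with a median of -3.90. Gpi1 in Rag1KO replicate 1 was at -0.71, and its 11 neighbours had a median of -1.05.

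The thioredoxin-interacting protein gene Txnip and its relative Arrdc4, both induced by glucose in many cells, were chosen after their values were seen. Txnip had 8398, 22859.6 and 1974 normalized counts in lines labelled WT and 10925, 16851 and 10431 in lines labelled Rag1KO. Arrdc4 had 649.6, 1752 and 52.8 normalized counts in lines labelled WT and 597, 1237 and 999.8 in lines labelled Rag1KO. In both genes WT replicate 4 was the highest line and WT replicate 6 the lowest, and the groups overlapped. A second, overlapping gene ID carries the symbol Aldoa and had at most 160 normalized counts, in WT replicate 6.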
